A study of Caenorhabditis elegans with 3 samples.

Results

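The regions described here are 90 autosomal candidate sites of high Y5F2A.4 signal. Each lay between 2 protein-coding genes transcribed away from each other. The authors' thresholded list held 44 of the 90, and the others did not pass that threshold. Y5F2A.4 carries, by its annotation, a zinc finger of the C2H2 type, a fold that often binds DNA. Chromatin immunoprecipitation with sequencing was run on whole C. elegans of 1 strain, OP682, which has the mutation unc-119(tm4063) and the integrated transgene wgIs682. The transgene expresses Y5F2A.4 with TY1, EGFP and 3xFLAG tags at its C-terminus, and also holds unc-119(+), the wild-type form of the mutated gene. The tagged protein was thus made from a transgene. All animals were mixed-sex L4 larvae of 48 hours, synchronised by bleaching and L1 starvation, and the precipitating antibody was against GFP. Sonication left fragments between 200 and 800 bp long, which limits how sharply a summit can be placed. There is 1 group of 3 libraries and no second condition, and 2 of the libraries are technical repeats of the first biological replicate. Because whole worms were used, signal from a few tissues cannot be told apart from weak signal in all of them.

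The 90 regions were selected on the signal value that the authors' peak caller gave each candidate region in the list made from both replicates together. Of 28443 candidates, which the label of the list calls peaks and background, 28426 were nuclear. The 2500 of these with the highest signal were kept. Of these, 2114 were autosomal, and 1840 of those lay more than 200 bp from any tRNA, snoRNA or snRNA gene. A region was counted as divergent when its summit lay within 1000 bp upstream of the 5' ends of both a plus-strand and a minus-strand protein-coding gene. That held for 90 of the 1840 regions, or 4.89%. Another 393 lay upstream of a gene on a single strand and are called one-sided, and 1357 lay upstream of no protein-coding gene. The signal values of the 90 ran from 65.2 to 426 with a median of 95.7, and they describe the selection rather than support it. The value has no stated unit.

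In a divergent promoter, a pair of genes on opposite strands start close to each other and share the DNA between their 5' ends, so that a factor bound there could act on either gene, both or neither. Such head-to-head pairs are common in compact genomes and often hold housekeeping genes. In C. elegans most transcripts are trans-spliced, which removes the first stretch of the primary transcript, so annotated 5' ends often lie downstream of the true start of transcription. Distances from summits to 5' ends below are distances to annotated ends.

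Sequence is shown first for the regions that shared words around the summit. The words were chosen after the windows had been seen, so their counts are descriptions. Each line gives the plus strand of assembly ce11 (RefSeq, WBcel235), 5′ to 3′, for the summit and 50 bases to each side of it. No window shown overlapped an annotated protein-coding exon. CATACACT was found in 4 of the 90 windows, all among the 5 regions with the highest signal. The capitals below mark CATACACT and the 3 shorter words ACCGTA and CGCTCC and ACACTC, on either strand, with overlapping matches merged.
rpl-20 and Y17G9B.5 (chrIV:4750029-4750129, plus strand): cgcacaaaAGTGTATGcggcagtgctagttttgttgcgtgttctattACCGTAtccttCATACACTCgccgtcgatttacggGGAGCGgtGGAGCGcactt
K01G5.10 and tasp-1 (chrIII:10759203-10759303, plus strand): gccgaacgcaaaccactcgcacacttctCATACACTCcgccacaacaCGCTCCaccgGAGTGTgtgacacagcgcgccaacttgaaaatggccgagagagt
rpl-15 and K11H12.8 (chrIV:654867-654967, plus strand): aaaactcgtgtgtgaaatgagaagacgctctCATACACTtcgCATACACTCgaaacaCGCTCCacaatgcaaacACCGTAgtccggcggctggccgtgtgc
ifet-1 and rps-1 (chrIII:4475590-4475690, plus strand): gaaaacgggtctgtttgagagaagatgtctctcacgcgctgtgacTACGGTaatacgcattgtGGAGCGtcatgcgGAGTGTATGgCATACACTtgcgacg

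The windows at rpl-20, rpl-15 and rps-1 each held all 3 of the shorter words, and the tasp-1 window held CGCTCC and ACACTC. At rpl-20, rpl-15 and rps-1 CATACACT occurred at 2 places in the window. A window of the same length centred 150 bp upstream of each of 17242 autosomal protein-coding 5' ends held CATACACT in 0.191% of cases, and the one-sided regions held it in 0.509%. These promoter windows were not centred on summits and include those of the genes at the 90 regions. Their median GC content was 32.7%, against 50.5% in the 90 windows, so all promoter shares here come from unlike sequence. The rps-1 window also overlapped a non-coding gene.

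GCTACGCA was found in 7 of the 90 windows and in 0.0406% of the 17242 promoter windows. None of the 1357 regions upstream of no gene held it, and of the 393 one-sided regions 0.254% did. The regions of rps-19 with hsr-9 and of rpl-12 with lin-54 held it too and had signals of 223 and 202. Their sequences are not shown, the latter because its window overlaps a protein-coding exon. The word was also in 2 regions of low signal, not shown either: rps-10 with rpl-24.1 (83.2) and egrh-2 with lep-2 (75.7). The 3 regions shown had signals of 224, 218 and 188, in the order given, and the word on either strand is in capitals.
drr-2 and set-16 (chrIII:13643684-13643784, plus strand): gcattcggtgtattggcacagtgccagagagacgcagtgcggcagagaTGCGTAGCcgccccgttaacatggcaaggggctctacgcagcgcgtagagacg
nhl-2 and tag-340 (chrIII:4899885-4899985, plus strand): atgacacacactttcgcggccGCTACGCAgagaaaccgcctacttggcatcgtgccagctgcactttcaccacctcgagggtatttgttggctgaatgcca
iff-2 and F54C9.14 (chrII:8561372-8561472, plus strand): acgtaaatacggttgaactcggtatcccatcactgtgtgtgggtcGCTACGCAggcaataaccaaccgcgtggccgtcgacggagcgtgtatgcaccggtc

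The word lay 2 bp from the summit at drr-2 and set-16, 25 bp at nhl-2 and tag-340, and 1 bp at iff-2 and F54C9.14. The nhl-2 window also overlapped a non-coding gene.

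GCGCCAGC was found in 10 windows (11.1%) and in none of the 180 flanking windows 300 bp to either side of the same summits. It was also in 3.31% of one-sided regions and in 2.17% of the 368 divergent regions of lower signal, ranked below 2500, and in 0.255% of promoter windows. It lay within 20 bp of the summit in each of the 10. The 5 windows below lay away from protein-coding exons and non-coding genes, and the capitals mark the word on either strand.
haf-3 and F57A10.2 (chrV:15766351-15766451, plus strand): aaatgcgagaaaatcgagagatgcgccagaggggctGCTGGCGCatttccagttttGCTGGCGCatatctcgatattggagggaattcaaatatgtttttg
jmjd-4 and mev-1 (chrIII:10334115-10334215, plus strand): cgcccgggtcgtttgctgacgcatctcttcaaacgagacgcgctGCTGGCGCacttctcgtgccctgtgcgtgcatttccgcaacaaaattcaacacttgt
nhr-142 and F44E7.9 (chrV:5791052-5791152, plus strand): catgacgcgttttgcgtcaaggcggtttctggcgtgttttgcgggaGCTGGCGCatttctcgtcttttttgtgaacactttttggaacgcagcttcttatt
nrde-2 and atad-3 (chrII:10248512-10248612, plus strand): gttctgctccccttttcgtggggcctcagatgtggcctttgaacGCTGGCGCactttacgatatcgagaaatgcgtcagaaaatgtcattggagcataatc
dnsn-1 and C24H12.4 (chrII:410996-411096, plus strand): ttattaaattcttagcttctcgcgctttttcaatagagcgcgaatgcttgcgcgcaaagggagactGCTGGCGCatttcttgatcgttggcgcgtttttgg

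The haf-3 window held the word at 2 places. The regions shown had signals from 69.1 at dnsn-1 and C24H12.4 to 124.9 at haf-3 and F57A10.2, and CATACACT was in none of them. The other regions with the word are not shown. Their signals were 143.9 at dnj-19 and nhr-47, 135.8 at rsr-1 and sri-5, and 106.5 at gpap-1 and scpr-1. Lower signals were those of npp-14 with cel-1 (74.5) and mdf-2 with nduv-3 (73.9). The median of all 90 regions was 95.7, so the word was found both above and below it.

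Heat shock factor is known to bind inverted repeats of GAA with a spacer of 2 bases, written GAANNTTC. The pair F44E5.4 and F44E5.5, both annotated as heat shock protein 70, is shown because it held this word at 2 places, with the region of R107.5 and cls-2 holding 1 beside it.
F44E5.4 and F44E5.5 (chrII:11759411-11759511, plus strand): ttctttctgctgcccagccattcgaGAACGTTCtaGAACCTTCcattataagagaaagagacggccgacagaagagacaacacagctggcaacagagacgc
R107.5 and cls-2 (chrIII:9054004-9054104, plus strand): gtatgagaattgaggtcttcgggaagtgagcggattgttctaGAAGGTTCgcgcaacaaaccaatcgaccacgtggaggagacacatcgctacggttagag

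GAANNTTC was in 9 of the 90 windows (10%) and in 8.89% of the flanking windows. It was in 5.34% of one-sided regions, 5.71% of weaker divergent regions and 6.61% of promoter windows, and these shares were not tested against each other. A match describes letters and does not show that a factor binds there.

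**Figure D1:**
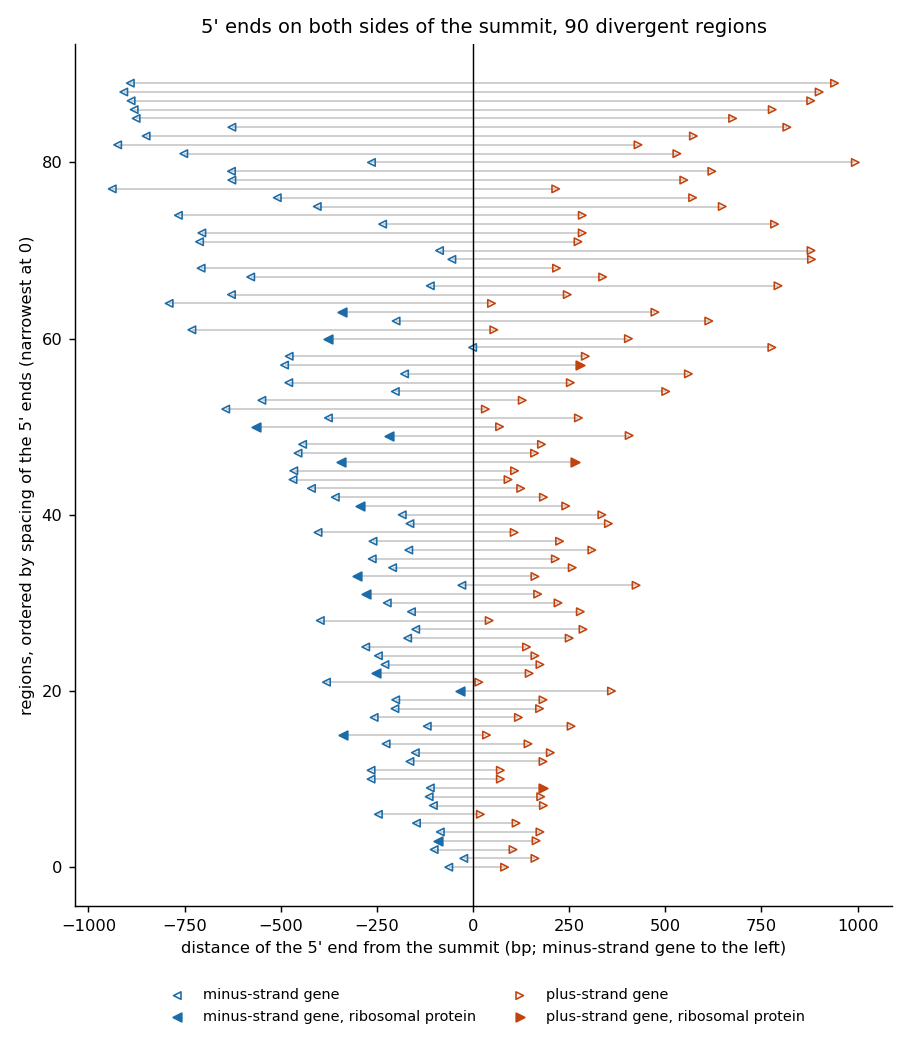
Positions of the annotated 5' ends around the summit (vertical line at 0) for the 90 regions, one region per row, ordered by spacing, with the minus-strand gene to the left and the plus-strand gene to the right, in bp. Filled triangles are the 15 ribosomal protein genes. Spacing runs from 145 to 1831 bp.

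The 5' ends of a pair were 566.5 bp apart in the median, with quartiles of 398.5 and 912 bp. For comparison, the autosomes hold 2382 pairs of neighbouring divergent protein-coding genes with 5' ends up to 2000 bp apart, and their median spacing was 658 bp with quartiles of 359 and 1122 bp. The 368 divergent regions among the weaker candidates, ranked below 2500, had a median spacing of 750.5 bp. Of the 90 regions 3 (3.33%) had a spacing of at most 250 bp, against 15.2% of all pairs, and a further 35 (38.9%) lay in pairs up to 500 bp apart, against 21.7% of all pairs. Pairs over 1000 bp apart held 17 regions (18.9%) and made up 30.1% of all pairs. The rule limits both extremes, since a tight pair offers little sequence and a wide one is covered only near its middle. All 90 pairs were distinct and gave 180 distinct genes. In 87 of them the pair was formed by direct neighbours.

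The tightest pair was T26A8.4, which encodes a C3H1-type zinc finger protein, with pdtf-1, annotated as a permeability-determining transcription factor. Their 5' ends were 145 bp apart, and the summit lay 63 bp from the former and 82 bp from the latter. Next came mdf-2, which encodes a spindle checkpoint protein, and nduv-3, a subunit of respiratory complex I, at 185 bp. The widest were egrh-2, which encodes a C2H2-type zinc finger protein, with lep-2, a makorin-type ubiquitin ligase, at 1831 bp, and taf-11.3 with sly-1 at 1808 bp. The taf-11.3 summit lay in an annotated exon of a protein-coding gene, as did that of nuo-3 and Y57G11C.14, and the other summits of the 90 lay outside such exons.

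By the rule each summit lay between the 5' ends of its pair. The nearer 5' end was 169 bp away in the median, from 1 bp at C37A2.8 to 900 bp at sly-1, and the farther one 405 bp. The nearer end was within 50 bp in 10 regions, within 200 bp in 54 and within 300 bp in 74. Both ends were within 300 bp in 32 regions, and in none were both within 50 bp. The summit was within 100 bp of the midpoint of the pair in 50 regions. Among the 368 weaker divergent regions the nearer end was 194 bp away in the median.

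The plus-strand gene was nearer in 54 regions (60%) and the minus-strand gene in 36. This split was not steady: with the 2500 strongest regions of replicate 2 in place of the combined list the plus-strand share was 48.9%, and with those of replicate 1 it was 51.4%. It was 48.9% among the weaker divergent regions.

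**Figure D2:**
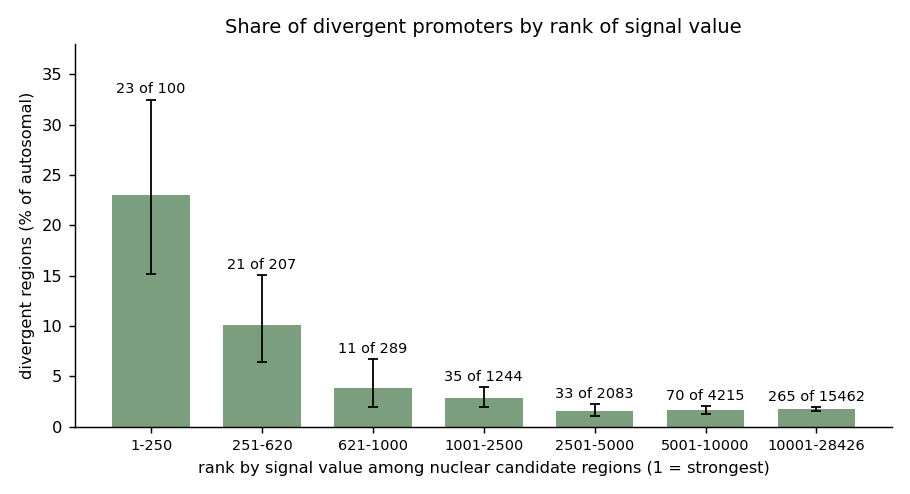
Share of autosomal regions away from tRNA, snoRNA and snRNA genes that are divergent (bars, %), by rank of signal value in the combined list. Error bars are 95% Clopper-Pearson intervals and labels give counts. The share falls from 23.0% in the first bin to under 2% past rank 2500.

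Divergent promoters made up more of the strong regions than of the weak ones. Of the 100 autosomal regions ranked 1 to 250, 23 were divergent (23.0%, 95% Clopper-Pearson interval 15.2 to 32.5%). The share was 10.1% of the next 207 regions, up to rank 620, 3.81% of 289 up to rank 1000 and 2.81% of 1244 up to rank 2500. Past rank 2500 it was between 1.58% and 1.71%, over 21760 regions. Such divergent windows take up 1.66% of the autosomal sequence away from the same small RNA genes, so the weak candidates fell in them about as often as that share. The intervals cover counting error only. One-sided regions made up 36.0% of the first bin and 16.6% of the last.

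The authors' thresholded list held 44 of the 90 regions, against 16.7% of all 1840 autosomal regions. The rest of the 90 were not in it and remain candidates. Membership there is no added support, since the 620 nuclear regions of that list are the 620 with the highest signal. A candidate summit lay within 200 bp in both replicates for 85 of the 90 regions (94.4%), against 92.7% of the 1840. For 50 of the 90 it was among the 2500 strongest of both replicates, against 31.2% of the 1840. The replicate lists feed the combined list, so this too is a description.

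**Figure D3:**
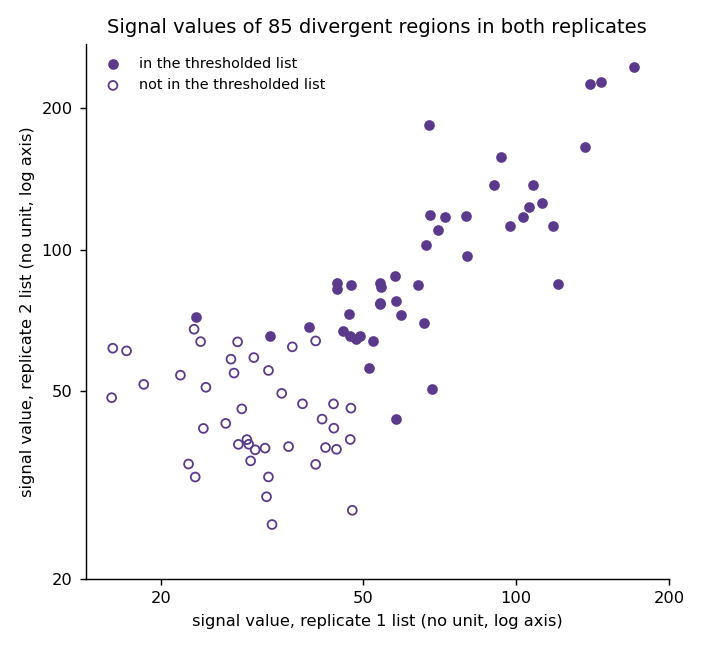
Signal value in the replicate 1 list (horizontal) and the replicate 2 list (vertical), both on log axes and without a unit, for the 85 divergent regions with a candidate summit in both. Filled points are in the thresholded list. The 4 strongest regions rank no lower than 31 in either list, while a filled point, eef-1A.1 with rfc-4, ranks 10151 in replicate 1 and 364 in replicate 2.

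The strongest regions were strong in both replicates. At rpl-20, the gene of large-subunit ribosomal protein eL20, and Y17G9B.5, annotated as the mitochondrial Toll pathway intermediate ECSIT, the signal was 426 in the combined list, 171 in replicate 1 (rank 8) and 245 in replicate 2 (rank 10). At K01G5.10, a haloacid dehalogenase-like hydrolase, and tasp-1, a threonine protease of the taspase family, it was 387 combined, 147 in replicate 1 and 227 in replicate 2. At rpl-15, the gene of ribosomal protein eL15, and K11H12.8, a growth hormone-inducible transmembrane protein, it was 371 combined, 140 in replicate 1 and 225 in replicate 2. These 3 regions ranked no lower than 26 in either replicate.

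Next in order came a chromatin gene and a pair around translation. epc-1, the enhancer of polycomb homolog of a histone acetyltransferase complex, and Y111B2A.12, a WD-repeat protein, had a signal of 280 combined, 137 in replicate 1 and 165 in replicate 2. ifet-1, a translational repressor that binds the cap-binding factor, and rps-1, of the small ribosomal subunit, had 264 combined, 67.2 in replicate 1 (rank 256) and 184 in replicate 2 (rank 24). The rps-1 region was therefore much further down the first list than the second.

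Then came regions of protein folding genes. Y22D7AL.10 and hsp-60 encode the small and the large mitochondrial chaperonin, which work as one folding machine, and their region had a signal of 250.95 combined, 108 in replicate 1 and 137 in replicate 2. F44E5.4 and F44E5.5 had 250.8 combined, 93.5 in replicate 1 and 158 in replicate 2. dnj-13, a DnaJ-type co-chaperone, and F54D5.9, an F-box protein, had 238 combined, 112 in replicate 1 and 126 in replicate 2.

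The remaining 7 of the 15 strongest regions had signals from 202 to 230. They were R107.5 with cls-2, a microtubule-binding CLASP-type protein; drr-2, an RNA-binding translation factor, with set-16, a histone H3 lysine 4 methyltransferase; cct-8, a subunit of the cytosolic chaperonin, with Y55F3AR.2, a thioredoxin domain protein. The others were rps-19 with hsr-9, a 53BP1-like protein; nhl-2, a TRIM-NHL cofactor of microRNA function, with tag-340; E04F6.6 with pcrg-1, the parkin co-regulated gene homolog; and rpl-12 with lin-54, the DNA-binding subunit of the DREAM repressor complex. Their ranks were between 40 and 151 in replicate 1 and between 52 and 240 in replicate 2.

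Lower regions differed more between replicates. At eef-1A.1, translation elongation factor 1 alpha, and rfc-4, a clamp loader subunit of DNA replication, the rank was 10151 in replicate 1 and 364 in replicate 2. At hsp-110, a co-chaperone of heat shock protein 70, and rpn-3, a proteasome lid subunit, it was 10362 and 434. The reverse was seen at aps-3, an adaptor subunit of vesicle coats, and Y48G8AL.7, annotated as an origin recognition complex subunit, with rank 753 in replicate 1 and 10697 in replicate 2. No candidate summit of replicate 1 lay within 200 bp at rps-0, Y77E11A.7, C15C8.4 or mrg-1 and their partners, and none of replicate 2 at nmad-1 and hach-1. These pairs were named after their values were seen.

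**Figure D4:**
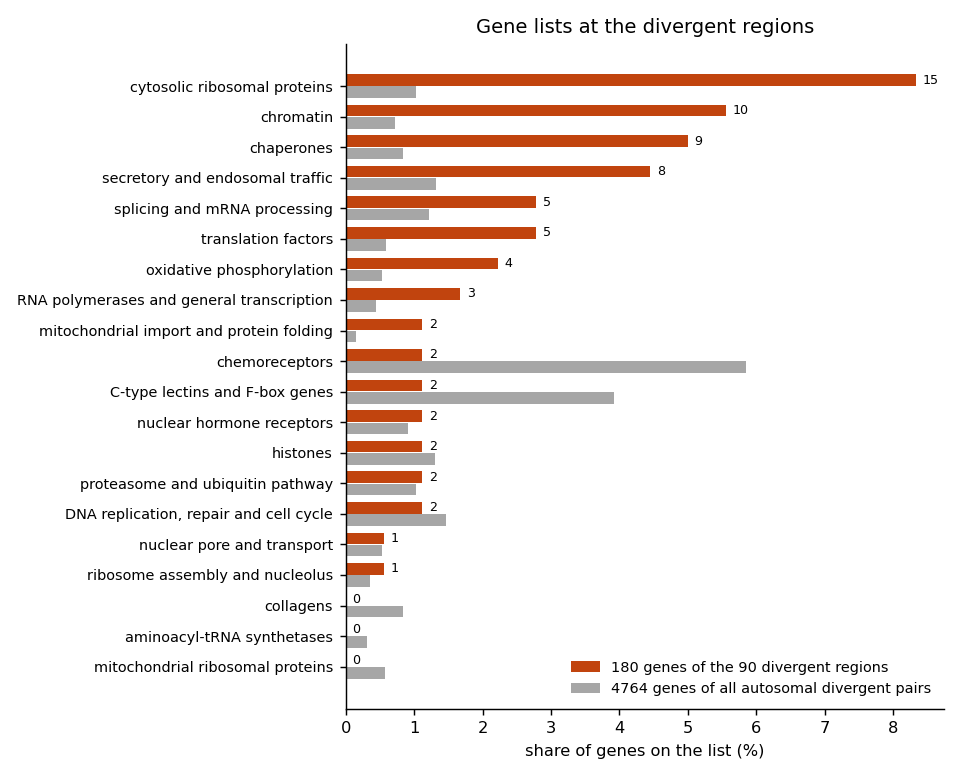
Share of the 180 genes of the 90 regions (upper bars) and of the 4764 genes of all autosomal divergent pairs (lower, grey bars) that are on each of 20 gene lists, in %. Numbers are counts of genes of the 90 regions. Cytosolic ribosomal protein genes have the longest upper bar, at 8.33%, and chemoreceptor genes the longest grey one, at 5.86%.

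The 180 genes are 1.04% of the 17242 autosomal protein-coding genes. Of the 4764 genes in the 2382 neighbouring divergent pairs, 178 (3.74%) were at one of the 90 regions, and the shares of single lists below can be read beside that value. On the 20 gene lists, which hold housekeeping complexes and large gene families, were 74 of the 180 genes (41.1%), against 23.8% of the 4764. These lists were drawn up with earlier results of the data known, so the counts are descriptions and were not tested.

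Cytosolic ribosomal protein genes, which encode the structural proteins of the ribosome, had the most members. There were 15 of them in 14 regions, out of 49 in any divergent pair (30.6%) and 79 on the autosomes. Besides rpl-20, rpl-15, rps-1, rps-19 and rpl-12 they were rpl-7A, rps-12, rps-15, rps-0, rps-20, rps-10, rpl-24.1, rps-23, rpl-36.A and rpl-1. Their signals ran from 67.9 to 426, and 7 of the 14 regions were in the thresholded list, about the share of all 90 (48.9%). A ribosomal protein gene was the nearer of the pair in 7 of the 14 regions, among them the region with such a gene on both sides. Its 5' end was 278 bp from the summit in the median, from 33 bp at rpl-12 to 564 bp at rpl-36.A. rps-10 and rpl-24.1 lie on either side of 1 region. The other 13 regions paired a ribosomal protein gene with a gene of another list or none. Of the 27 mitochondrial ribosomal protein genes in divergent pairs 0 were at one of the 90 regions, with an upper limit of 11.1%. Of the 14 regions, 5 lay within 200 bp of a non-coding gene other than tRNA, snoRNA, snRNA and piRNA genes, against 20 of all 90. Without those 20 regions, 12.9% of the 70 left had a ribosomal protein gene in place of 15.6%.

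Translation factor genes gave 5 of 28 in divergent pairs (17.9%). They were drr-2, iff-2, which encodes initiation factor 5A, eef-2, which encodes the translocating elongation factor, eef-1A.1 and clu-1. At iff-2 the summit was 55 bp from its 5' end and 880 bp from that of F54C9.14, with a signal of 188 combined, 67.7 in replicate 1 and 118 in replicate 2. At eef-2 it was 19 bp from the 5' end, and the partner was clsp-1, the checkpoint mediator claspin. Aminoacyl-tRNA synthetases, which charge tRNAs, gave 0 of 15. The upper limit for that count of 0 is 20%.

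Chaperone genes gave 9 of 40 (22.5%). Beside hsp-60, dnj-13 and cct-8 these were dnj-19, cct-1, hsp-110, cyn-7, cct-7 and dnj-28. In 7 of the 9 regions the other gene of the pair was nearer to the summit, as at cct-1, where mig-5, a dishevelled homolog of Wnt signalling, was at 170 bp and cct-1 at 250 bp. Of the 9 regions, 5 lay within 200 bp of a non-coding gene, against 20 of all 90. The part of those genes in the result was not tested. F44E5.4, F44E5.5 and Y22D7AL.10 are chaperones by their annotation but carry no chaperone-type symbol and are not in the count.

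Chromatin genes gave 10 of 34 (29.4%). They were epc-1, set-16, lin-54, set-21, lin-53, jmjd-4, htz-1, mrg-1, lin-35 and dot-1.1. htz-1 encodes the histone variant H2A.Z, and lin-35 the retinoblastoma-like protein that works with lin-53 and lin-54. Signals ran from 67.9 at dot-1.1 to 280 at epc-1. Of the 10 regions 6 were in the thresholded list, beside 44 of all 90 (48.9%). In 6 of them the partner was nearer to the summit, such as rpl-12 at 33 bp with lin-54 at 360 bp, and rpl-7A at 90 bp with set-21 at 164 bp. Of the 62 core histone genes in divergent pairs 2 were at a region, his-67 and his-68, whose 5' ends were 369 bp apart.

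Oxidative phosphorylation genes gave 4 of 25 (16%), namely nduf-2.2, mev-1, nuo-3 and nuo-1. mev-1 encodes a membrane subunit of succinate dehydrogenase, and its partner jmjd-4 a Jumonji domain protein. Their summit was 112 bp from mev-1 and 147 bp from jmjd-4, with a signal of 113 combined, 48.4 in replicate 1 and 64.7 in replicate 2. The list left out the symbols ndua, nduc and nduv. With them, an addition made after their values were seen, 6 of the 19 complex I genes in divergent pairs were at a region, the others being ndua-8, nduc-2 and nduv-3.

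Secretory and endosomal traffic genes gave 8 of 63 (12.7%). sec-61.B and trap-3 encode subunits of the channel that takes new proteins into the endoplasmic reticulum and of its associated complex. Their 5' ends were 770 bp apart, with a signal of 168 combined, 66.5 in replicate 1 and 102 in replicate 2. apb-1, a clathrin adaptor subunit, was paired with mdt-19, a Mediator subunit. vps-32.1, of the membrane-cutting ESCRT machinery, was paired with icd-1, which encodes a subunit of the nascent polypeptide-associated complex. Splicing genes gave 5 of 58 (8.62%), with rsp-2 and rsp-1, both of SR protein splicing factors, on either side of 1 summit. The others were prp-40, uaf-2 and prp-19.

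Smaller counts came from the remaining lists. General transcription gave 3 of 21 genes (mdt-19, taf-11.3, taf-4), mitochondrial import and folding 2 of 7 (hsp-60, timm-23), the proteasome and ubiquitin list 2 of 49 (ubc-6, rpn-3), DNA replication and cell cycle 2 of 70 (rfc-4, mdf-2), nucleolar genes 1 of 17 (nol-10) and nuclear pore genes 1 of 25 (npp-14). Among the large families, chemoreceptor genes, which encode receptors of sensory neurons, gave 2 of 279 (0.717%), sri-5 and srh-217. C-type lectin and F-box genes gave 2 of 187 (1.07%), fbxb-85 and bath-36, and nuclear hormone receptor genes 2 of 43 (4.65%), nhr-47 and nhr-142. Collagen genes, which build the cuticle, gave 0 of 40, with an upper limit of 7.5%.

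Pairs of like function were few. In 4 regions (4.44%) both genes were on the same list: rps-10 with rpl-24.1, rsp-2 with rsp-1, his-67 with his-68 and sec-61.B with trap-3. Among all 2382 pairs the share was 5.79%, but large families made up most of it. These were 53 chemoreceptor, 31 C-type lectin and F-box, 30 histone and 8 nuclear hormone receptor pairs. By list, the regions held 1 of 3 ribosomal protein pairs, 1 of 2 splicing pairs and 1 of 1 traffic pairs. They held 0 of 3 chaperone and 0 of 3 proteasome pairs, and 0 of 1 each for general transcription and DNA replication. The pooled shares are therefore of unlike make-up, and no difference was tested. By annotation the pairs of hsp-60 with Y22D7AL.10 and of F44E5.4 with F44E5.5 would join the 4, a remark made after their values were seen.

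**Figure D5:**
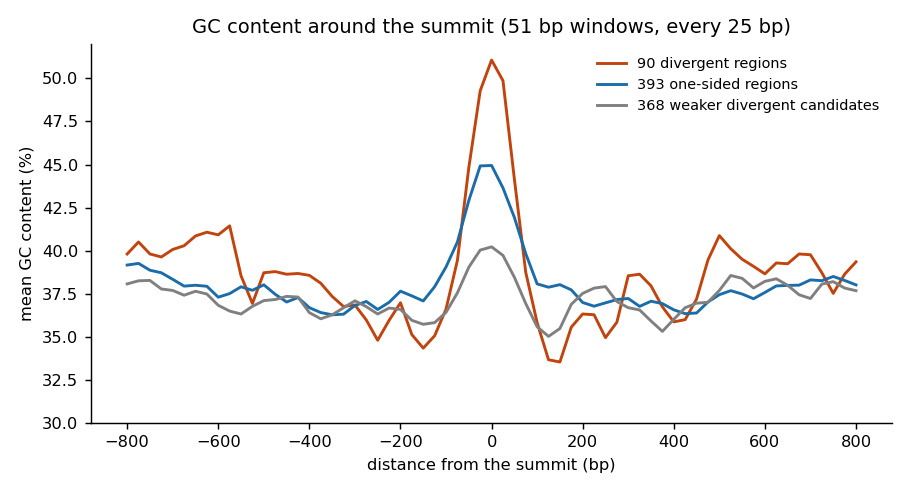
Mean GC content (%) in windows of 51 bp at distances up to 800 bp from the summit, for the 90 divergent regions, the 393 one-sided regions and the 368 weaker divergent candidates. The vertical axis starts at 30%. At the summit the means are 51.1%, 44.9% and 40.2%.

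The DNA under the summits was rich in G and C over a short stretch. Within 50 bp of the summit the median GC content was 50.5%, from 26.7% to 72.3%, against 36.6% in windows 300 bp to either side. It was above the mean of its own flanks in 77 of the 90 regions. One-sided regions had a median of 44.6%, weaker divergent regions 39.6% and windows at the midpoints of all 2382 pairs 33.7%. The mean fell from 51.1% at the summit to 36.6% and 35.8% at 100 bp to its left and right. GC-rich DNA can itself be recovered or read more often, and the control reads were not analysed here, so the part of base composition in the signal was not tested.

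Words of 6 bases were compared with the same flanking windows, each counted with its reverse complement. Those flanks had a median GC content of 36.6% against 50.5% at the summits. They were centred 300 bp from the summit, and in 74 regions the nearer 5' end was within that distance. The promoter windows had a median GC content of 32.7%. The part of base composition and of gene sequence in the word shares was not tested. The largest excess was that of GCGCAC and of GCGCCA, each in 19 of the 90 windows (21.1%) against 1.67% of flanks. In one-sided regions they were at 6.62% and 8.40%. The 3 chosen words were not the next in order of excess: ACCGTA was at place 3, CGCTCC at 14 and ACACTC at 10. Words placed between them, such as CGCAAA (23.3% against 4.44%) and ACGCGC (20% against 1.67%), were passed over. ACCGTA was in 19 windows (21.1% against 2.22%), CGCTCC in 17 (18.9% against 2.78%) and ACACTC in 17 (18.9% against 2.22%). In one-sided regions these 3 were at 5.09%, 4.33% and 7.12%. With soft-masked repeats removed ACCGTA led, in 18 windows (20%) and no flank. At least 1 of these 3 words was in 34 of the 90 windows (37.8%), against 15% of one-sided regions, 13.3% of weaker divergent regions and 8.37% of the 17242 promoter windows. All 3 were together in 5 of the 90 windows, and in 2 of the 17242 promoter windows. Those 5 were rpl-20, rpl-15, rps-1, ndk-1, a nucleoside diphosphate kinase gene, and T26A8.4, each with its partner. Of the 14 regions with a ribosomal protein gene 10 held at least 1 of the 3 words, and of the other 76 regions 24 did (31.6%). The 3 words were picked from the windows themselves, so these shares are no test. The windows at rpl-20, rpl-15 and rps-1 were among those seen, so the split by ribosomal protein genes is no test either.

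TTTCAG, the letters of the trans-splice acceptor, was in 4 windows (4.44%) against 29.4% of flanks, 15.6% of promoter windows and 13.7% of one-sided regions. TATAAA was in 2 (2.22%) against 9.44% of flanks and 6.62% of one-sided regions. The A-rich word AAAAAT was in 24.4% against 47.8% of flanks. Its share was also low in one-sided regions (31.6%) and in regions upstream of no gene (25.9%), so it is not particular to the divergent regions. The E-box CACGTG and the GC box GGGCGG were in 5 windows each (5.56%), against 1.67% and 0.556% of flanks and 4.33% and 6.62% of one-sided regions. The letters TTCCCGCC of the DREAM and E2F site, TGACGTCA of the cAMP response element, the ETS word CCGGAAG, the YY1 word AAGATGG, the palindrome CTCGCGAG, the GATA word CTGATAA and the tRNA B box core GGTTCGA were in none of the 90 windows, searched on both strands. A count of 0 of 90 allows a share of up to 3.33%, and the promoter windows held each of these in at most 2.74% of cases, so a difference was not detectable with this many regions.

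The regions were spread unevenly over the autosomes. Chromosome III held 25 and chromosome I 27, or 6.49 and 6.31 for every 100 of the neighbouring divergent pairs there. Chromosome IV held 17 (3.86), II held 13 (2.79) and V held 8 (1.21).

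The limits of the rule cut through a continuous series. The last region inside the rank limit was that of nmad-1 and hach-1 at rank 2491 with a signal of 65.2, and the next divergent region was that of C37C3.9 and C37C3.18 at rank 2550 with 64.7. For the window limit, cls-2 lay 994 bp from the summit inside it, and the first region left out, between mdf-1 and his-41, lay 1004 bp from the farther 5' end.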

How the data were processed

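Region lists of 1 strain were analysed, from 3 libraries of 2 biological replicates. The authors deposited candidate lists for replicate 1 (30000 regions), replicate 2 (23415) and both together (28443), and a thresholded list of 635, in assembly ce11 per the labels. Both technical libraries of replicate 1 share 1 list and counted as 1 replicate. The deposited signal value, a score without a stated unit, ranked regions within a list, and its ranks also follow read depth, mappability and the control. The deposited −log10 q-value ran from 0.691 to 1.97 in the 90 regions, 47 of which stood at the highest value, so it ranked nothing. From rank 1365 down it was at most 1.25, a weak q-value. Summits came from the offsets that the authors deposited. No aligner or peak caller is named in the sources used here. Read depth is unknown and control reads were not analysed here.

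Genes and 5' ends came from Ensembl release 115 and sequence from the RefSeq WBcel235 genome, with no region past a chromosome end. Of 26 protein-coding genes without a symbol, 12 were named through RefSeq. The strongest summit within 200 bp stood for a region in a replicate list. Shares have 95% Clopper-Pearson intervals, but the upper limit given for a count of 0 is 3 divided by the number counted. Words were counted on both strands within 50 bp of a position. Python 3.11.15, numpy 2.4.6, pandas 2.3.3, scipy 1.17.1 and matplotlib 3.10.9 were used. The selection and the word ranking were tested on simulated data. With 1 group and members chosen by signal, no test was run.

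The regions and gene lists were chosen with earlier results of these data known. Named genes were those of the 15 strongest regions, up to 3 regions per gene list, the 2 tightest and 2 widest pairs and the regions at the limits, and others are marked as named after their values were seen or complete a count. Alternatives changed the number of regions, the window, the 5' ends, the genes left out, the list, the matching distance and the words.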

Additional observations from a re-analysis of the deposited data

How the results depend on the processing

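Of 80 values computed under other settings, 66 stayed within the counting interval of the main value, or within 1.5 times a count, and 14 did not. Among the 1000 strongest regions 55 were divergent (9.23%), 80.0% of them were in the thresholded list, and GC content was 52.5%. Among the 5000 strongest the divergent share was 3.14%, and 35.8% were in the thresholded list. With 500 bp upstream there were 56 regions (3.04%) and a median spacing of 437 bp. In the thresholded list alone 44 regions were divergent (14.3%), with a GC content of 53.5%. Leaving out each replicate in turn gave divergent shares from 3.71% to 5.09% and a plus-strand gene nearer in 48.9% to 51.4%. The 94 regions found without replicate 1 shared 71 pairs with the 90, and the 70 found without replicate 2 shared 54. Without replicates 1 and 2 in turn, 34.0% and 30% held at least 1 of the 3 chosen words, a setting chosen after seeing the data. The leading 6-base word was GCCAGC in windows of 25 bp each side and GCGGCA in windows of 100 bp each side. No paired analysis was possible because there is 1 group. The cause of these changes was not tested. Regions too weak to be listed were not detectable at an unknown depth.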
